A study of Mus musculus with 6 samples.

Results

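The genes of the major histocompatibility complex (MHC) class II pathway were examined in the vestibular sensory epithelium of male 129S1/SvImJ mice exposed to 3,3'-iminodipropionitrile (IDPN), an ototoxic nitrile that harms hair cells (HCs), the receptor cells of this epithelium. The group was set by gene symbol and held 5 genes, Cd74, H2-Aa, H2-Ab1, H2-Eb1 and Ciita, of the 52636 genes in the deposited table. All 5 were found under a single row each, and all 5 entered the test over 17650 genes. Bulk RNA-seq libraries came from 3 Control mice, which drank plain water, and 3 IDPN mice, which drank water with 30 mM IDPN for 8 weeks and were killed on the last day of exposure. Each library held the pooled utricles and cristae of 1 animal, and no transgene or deletion is named for either group. The mice were aged 2 to 4 months when the 8 weeks on IDPN or plain water began. The comparison asked whether chronic ototoxic exposure changes transcripts of antigen presentation in this tissue.

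MHC class II molecules present peptides taken up from outside the cell to CD4+ T cells, and they are made mainly by professional antigen-presenting cells, namely dendritic cells, B cells and macrophages. An alpha chain and a beta chain (H2-Aa with H2-Ab1 for I-A, and H2-Eb1 as the beta chain of I-E) assemble in the endoplasmic reticulum with the invariant chain Cd74, which blocks the groove until endosomal proteases remove it. H2-DM then exchanges the remaining invariant chain fragment for peptide, and H2-DO restrains H2-DM. Ciita, the class II transactivator, does not bind DNA itself but joins RFX, CREB and NF-Y proteins on the X and Y boxes of class II promoters, and interferon-gamma induces it, in part through Irf1. Resident macrophages of the inner ear include class II-bearing cells.

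Total estimated counts ran from 40474847 to 43566332 per library, and size factors from 0.825 in Control 1 to 1.21 in IDPN 1. The cDNA was amplified by PCR without molecular identifiers, so counting error alone understates the error. Animal codes in the titles begin alike for the 3 Control mice and otherwise for the IDPN mice. Whatever that shared code stands for cannot be told apart from exposure. The codes of IDPN 2 and IDPN 3 begin alike, and that of IDPN 1 begins otherwise. The HC markers fixed for the tissue check were all detected, and 7 of 10 were called lower after IDPN (against 3.42% of all genes tested), or 3 of 10 with size factors proportional to total counts. Among them was Ptprq, a hair bundle phosphatase (log2 fold change (FC) −1.54, SE 0.17, DESeq2 Padj = 5.09e-18). In bulk tissue, fewer cells of a type and less RNA per cell cannot be told apart.

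The upstream sequences are shown first because the X and Y boxes are the elements these genes share, and Ciita acts through them. RefSeq promoters on GRCm38.p6 were available for H2-Aa and H2-Eb1 among the members, and H2-DMb1 and H2-Ob are set beside them as class II genes of the same region in which both boxes were matched. Each sequence gives the 110 bases before the annotated start, 5′ to 3′ on the gene's strand, at chr17:34287824-34287933 (minus strand) for H2-Aa, chr17:34305757-34305866 (plus) for H2-Eb1, chr17:34153081-34153190 (plus) for H2-DMb1 and chr17:34238795-34238904 (plus) for H2-Ob. Capitals mark matches on the gene's strand to the Y box ATTGG and, where present, to the X box searched in part as AACNNNTGA.
H2-Aa: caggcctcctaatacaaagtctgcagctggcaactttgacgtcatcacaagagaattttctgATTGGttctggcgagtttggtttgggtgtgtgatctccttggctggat
H2-Eb1: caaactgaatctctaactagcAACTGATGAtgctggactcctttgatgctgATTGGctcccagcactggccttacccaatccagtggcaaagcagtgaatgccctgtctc
H2-DMb1: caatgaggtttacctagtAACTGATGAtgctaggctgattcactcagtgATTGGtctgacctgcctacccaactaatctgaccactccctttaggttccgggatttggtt
H2-Ob: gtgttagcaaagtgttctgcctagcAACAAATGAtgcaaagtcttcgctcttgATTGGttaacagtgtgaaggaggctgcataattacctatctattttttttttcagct

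The Y box stood on the gene's strand in all 4 sequences, with its first base 48 bases before the start in H2-Aa, 59 in H2-Eb1, 61 in H2-DMb1 and 57 in H2-Ob. ATTGG was preceded by TG in each of them, and H2-Eb1 held a further match on the opposite strand. The partial X box lay upstream of the Y box in H2-Eb1, H2-DMb1 and H2-Ob, beginning 89, 92 and 85 bases before the start, and its letters were not found in H2-Aa. Within the last 110 bases on the gene's strand, ATTGG occurred in 11.2% of 32851 promoters, TGATTGG, which contains it, in 2.52% and AACNNNTGA in 2.03%. On either strand of the 250 bases before the start the shares were 33.8%, 7.23% and 10.1%. Of the 8 class II genes with a promoter in the table, 8 held ATTGG, 7 held TGATTGG (all but H2-DMa) and 4 held AACNNNTGA, the 3 shown here and H2-DMb2. The patterns TGATTGG and AACNNNTGA were chosen after these sequences had been read. A planned core ACAGATG (4.15% of promoters) was found only farther upstream in H2-Aa and H2-Oa, and the gamma-activated site TTCNNNGAA (7.02%) only in H2-DMb2, of the class II promoters in the table. Neither the interferon-stimulated response element GAAANNGAA (7.13%) nor the E box CACGTG (6.02%) occurred in them. A match is a string of letters and was not tested for binding.

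None of the 5 members was called after IDPN by DESeq2 (Padj under 0.05 and FC over 1.5), where 5.75% of all genes tested were called, 3.42% lower and 2.32% higher. Over all genes this was 604 lower and 410 higher, and with total-count size factors 214 lower and 609 higher. The edgeR quasi-likelihood test also called none, and 1 member, H2-Eb1, had an unadjusted p under 0.05. Among the 4 abundant members the log2 FC ran from −0.76 in H2-Eb1 to −0.05 in Cd74, against a median of 0.02 over all genes tested.

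H2-Eb1, the beta chain of I-E, lies at 34305867 to 34316674 on the plus strand of chromosome 17 in GRCm38. The Control libraries held normalised read counts of 439, 405 and 374 (replicates 1 to 3), and the IDPN libraries 137, 318 and 264. All IDPN libraries lay below all Control libraries, and H2-Eb1 was the only member whose groups did not overlap. Of all genes tested, 11.4% were lower with no overlap. The means were 406 ± 32.7 and 240 ± 93.3 (SD, n = 3 each), a log2 FC of −0.76 with an SE of 0.28 and a 95% interval of −1.32 to −0.21. The unadjusted p was 0.00733 and the DESeq2 Padj 0.0902, with 0.181 in edgeR. Without IDPN 2, the highest IDPN library, the log2 FC was −1.02 and Padj 0.0185, the only call made of any member under any setting. The interval therefore spans sizes on both sides of the 1.5-fold threshold.

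H2-Aa, the alpha chain of I-A, occupies 34282744 to 34287823 on the minus strand of the same chromosome. Control libraries held 557, 548 and 504 normalised counts and IDPN libraries 258, 417 and 512. IDPN 3 lay above Control 3, so the groups overlapped, while IDPN 1 and IDPN 2 lay below every Control library. The log2 FC was −0.44 (SE 0.25, 95% interval −0.92 to 0.05, DESeq2 Padj = 0.369), and −0.20 without IDPN 1. H2-Ab1, the partner beta chain at 34257689 to 34269419 on the plus strand, had 405, 431 and 344 in the Control libraries against 228, 363 and 400 after IDPN. IDPN 1 was again lowest, and IDPN 2 and IDPN 3 lay within the Control range. The log2 FC was −0.25 (SE 0.25, 95% interval −0.73 to 0.23, DESeq2 Padj = 0.691), −0.04 without IDPN 1 and −0.01 with total-count factors.

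Cd74, the invariant chain, lies at 60803848 to 60812652 on the plus strand of chromosome 18. Its normalised counts were 1026, 1084 and 1009 without exposure, and 622, 1135 and 1260 after IDPN. The Control libraries were close together, whereas the IDPN libraries held both the lowest and the 2 highest of the 6 values. The means were 1040 ± 39.2 and 1006 ± 338 (SD, n = 3 each), and the log2 FC was −0.05 (SE 0.24, DESeq2 Padj = 0.958). In this main fit its 95% interval, −0.52 to 0.42, lay within a 1.5-fold change either way (0.585 on the log2 scale). That bound was kept without IDPN 1 (SE 0.19) but not without any other single library, for example IDPN 3 (log2 FC −0.24, SE 0.27). Total-count size factors did not keep it either (SE 0.26). The sign depended on 1 library and on scaling, since the log2 FC was 0.21 without IDPN 1 and 0.18 with size factors proportional to total counts.

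Ciita, at 10480059 to 10528418 on the plus strand of chromosome 16, was near the limit of detection. Before normalisation it had 11, 3 and 12 estimated counts in the Control libraries and 3, 19 and 10 after IDPN. The groups overlapped across almost the whole range, and the lowest and highest normalised values were both IDPN libraries. The log2 FC was 0.16 with an SE of 0.98 (DESeq2 Padj = 0.967). Its 95% interval of −1.76 to 2.07 does not exclude a change beyond 1.5-fold in either direction. The log2 FC was −0.24 without Control 2 and −0.64 without IDPN 2.

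**Figure D1:**
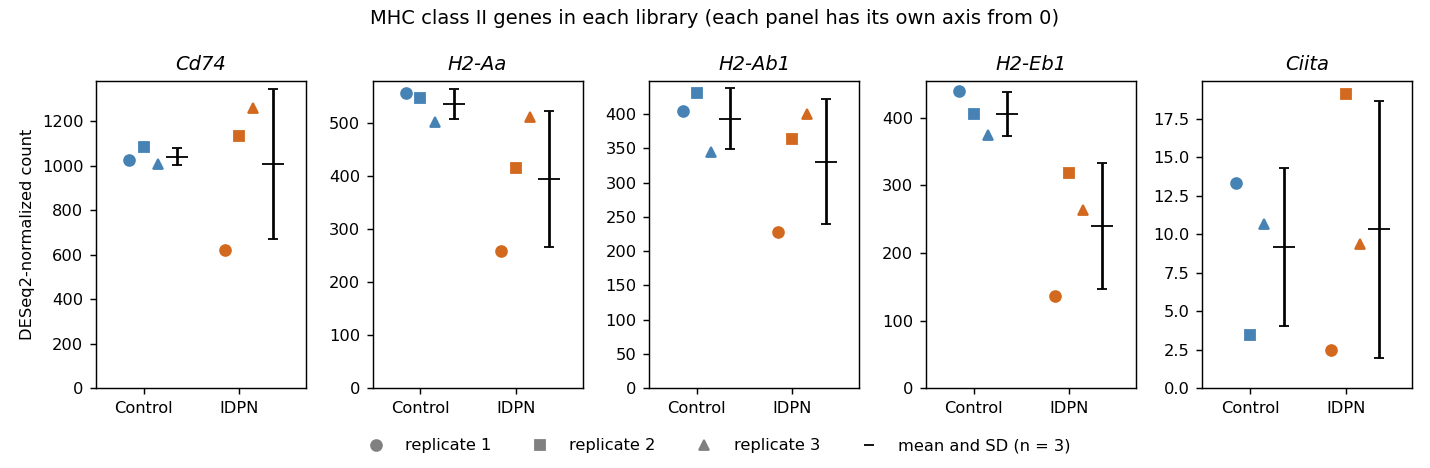
Normalised read count (y axis, from 0, with a separate scale in each panel) of each class II gene in the Control and IDPN libraries, with the group mean and SD (n = 3) as a bar beside the points. IDPN 1 is the lowest of the 6 libraries in all 5 panels, and the groups are apart only in H2-Eb1.

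Levels were compared between genes per length, as estimated counts per kilobase of exonic sequence scaled to 1000000 in each library. On this scale Cd74 was the most abundant member, at 29.6 ± 5.15 in Control mice and 35.8 ± 9.71 after IDPN (SD, n = 3 each). H2-Eb1 stood at 9.92 ± 1.20 and 7.29 ± 2.09, H2-Ab1 at 7.25 ± 0.677 and 7.72 ± 1.62, and H2-Aa at 6.72 ± 0.932 and 6.25 ± 1.73. Neighbours among these 3 chains did not differ beyond their spread within the IDPN group, and H2-Aa and H2-Ab1 did not in Control. The length took in all annotated exons, 2568 bases for H2-Ab1 and 1944 for H2-Eb1. Their longest transcripts have 1212 and 1669 bases, so the order of the chains may depend on the length used. Ciita was at 0.0465 ± 0.0268 and 0.0615 ± 0.0445. The per-length scale set the IDPN means of Cd74 and H2-Ab1 above Control and the DESeq2 size factors set them below, differences smaller than the SD of the IDPN group on both scales. No 76-base window of the longest transcript of any member was shared with another gene.

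The libraries other than IDPN 1 ranked differently from member to member. IDPN 1 carried the lowest normalised value of every member. This held before normalisation for Cd74, at 752 counts in IDPN 1 against 846 or more elsewhere, and for H2-Aa, at 312 against 415 or more. The summed normalised count of Cd74, H2-Aa, H2-Ab1 and H2-Eb1 was 2427, 2468 and 2230 in Control and 1245, 2233 and 2437 in IDPN. IDPN 2 and IDPN 3 thus lay at or near the Control level and IDPN 1 far below it. As a share of all counts the sum was 51.9 ± 5.39 per 1000000 in Control mice and 50.6 ± 14.2 after IDPN (SD, n = 3 each).

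Within a library the chains were set against Cd74, a ratio that no size factor changes. The ratio was chosen after the values had been seen and is given without a test. H2-Aa stood at 54.3, 50.6 and 49.9 counts per 100 Cd74 counts in Control, and at 41.5, 36.7 and 40.7 in IDPN. H2-Eb1 stood at 42.8, 37.4 and 37.0 in Control, and at 21.9, 28.1 and 21.0 in IDPN. For both chains all IDPN values, those of IDPN 2 and IDPN 3 included, lay below the lowest Control value. The same held for the ratio to Cd74 of 2.45% of 17649 genes. H2-Ab1 stood at 39.5, 39.7 and 34.1 in Control and at 36.6, 32.0 and 31.8 in IDPN, and its groups overlapped. Set against H2-Ab1, H2-Eb1 stood at 108, 94.1 and 109 per 100 counts in the Control libraries and at 60.0, 87.6 and 66.0 after IDPN, without overlap, whereas against H2-Aa its groups overlapped. The share of all genes without overlap was not counted for the ratios to H2-Ab1. A ratio within a library does not say which of its genes differs.

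**Figure D2:**
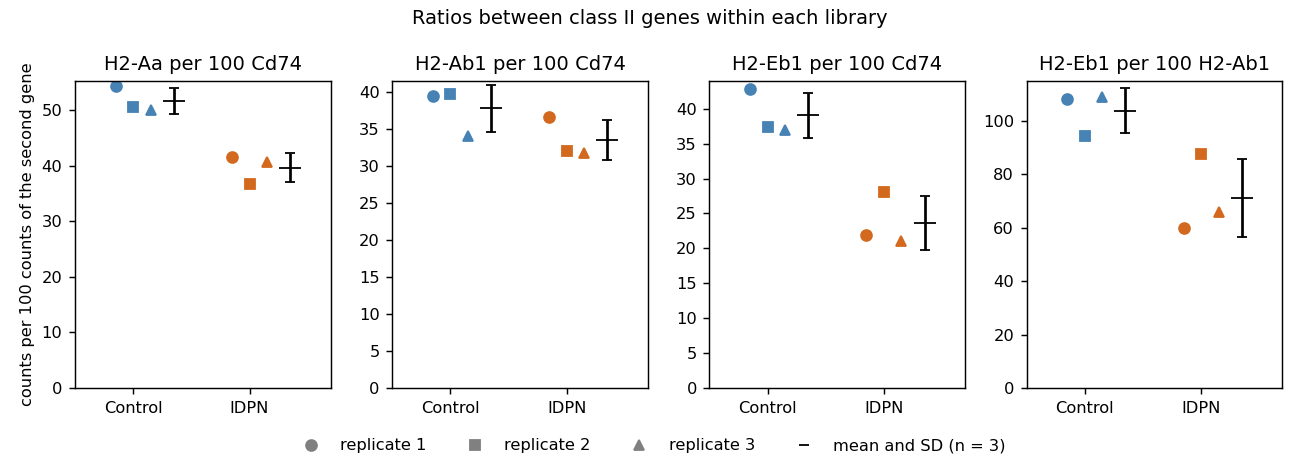
Counts of a class II chain per 100 counts of Cd74 or of H2-Ab1 in the same library (y axis, from 0, separate scales), with the group mean and SD (n = 3) beside the points. The groups are apart for H2-Aa and H2-Eb1 per Cd74 and for H2-Eb1 per H2-Ab1, and overlap for H2-Ab1 per Cd74.

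The other class II chains and peptide editors comprised 7 genes, of which 3 entered the test and 0 were called (median log2 FC −0.16). H2-DMb1, the beta chain of the editor H2-DM, had 877, 847 and 738 normalised counts in Control mice and 811, 752 and 819 after IDPN (log2 FC −0.05, SE 0.17, DESeq2 Padj = 0.939). H2-DMa, its alpha chain, had 423, 448 and 443 in Control and 400, 444 and 331 in IDPN (log2 FC −0.16, SE 0.20, DESeq2 Padj = 0.773). IDPN 1 was not the lowest library in either gene, unlike in the members. Per length, H2-DMb1 was nearly as abundant as Cd74 in Control, at 23.2 ± 2.32 per 1000000, and H2-DMa was at 6.10 ± 1.29 (SD, n = 3 each). H2-DMb1 shared 18.9% of its 76-base windows, mainly with H2-DMb2, so the split between them is uncertain. H2-Ob, a chain of the inhibitor H2-DO, was at 3.73 to 9.23 normalised counts, with a DESeq2 Padj of 0.878. H2-DMb2 and H2-Oa, at 0 to 6.06 and 0 to 3.56, received no Padj. H2-Oa shared 13.4% of its windows with another gene model. H2-Eb2 and H2-Ea-ps had 0 counts in all 6 libraries, which allows up to 3 counts per library. H2-Ea-ps, the alpha chain partner of H2-Eb1, is marked by its symbol as a pseudogene in the reference strain.

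Of the 7 factors that bind class II promoters 0 were called, with a median log2 FC of 0.06. Nfyc and Nfyb, subunits of NF-Y at the Y box, had log2 FCs of 0.11 (SE 0.18) and −0.04 (SE 0.17). Rfxank, a subunit of the RFX complex at the X box, was at 481, 514 and 593 in Control and 537, 494 and 490 in IDPN (log2 FC −0.06, SE 0.18, DESeq2 Padj = 0.924). Rfx5, its DNA-binding subunit, was at 230, 389 and 367 in Control and 429, 379 and 415 in IDPN (log2 FC 0.31, SE 0.24, DESeq2 Padj = 0.569).

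Among 10 genes of class II antigen processing 1 was called, and the list's median log2 FC was −0.10. Ifi30, the lysosomal thiol reductase GILT that reduces disulphide bonds of antigens, rose from 660, 1683 and 1148 normalised counts in Control to 1879, 3466 and 2008 in IDPN. The groups did not overlap (log2 FC 1.07, SE 0.30, DESeq2 Padj = 0.00834). The call was lost without Control 1, Control 3 or IDPN 2 (DESeq2 Padj = 0.103, 0.301 and 0.163) and in edgeR (adjusted p = 0.117). Ctss, the cathepsin that performs the last cut of the invariant chain, was at 349, 401 and 243 in the Control libraries and 406, 562 and 412 after IDPN. The groups did not overlap, and it was not called (log2 FC 0.48, SE 0.24, DESeq2 Padj = 0.293). Groups without overlap, higher or lower, were found for 3969 of the 17650 genes tested. The abundant lysosomal proteases Ctsd, Ctsb and Ctsl had log2 FCs of −0.28, −0.15 and −0.17, each with a DESeq2 Padj of 0.427 or more.

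Of 8 co-stimulators and Cd74 partners, 7 were tested and 0 called (median log2 FC −0.18). Mif, the cytokine that binds Cd74 at the cell surface, had 5316, 6836 and 3894 normalised counts in Control and 3317, 4607 and 4773 in IDPN, with overlap (log2 FC −0.34, SE 0.22, DESeq2 Padj = 0.467). Cd44, the signalling partner of surface Cd74, had a log2 FC of −0.57 (SE 0.35, DESeq2 Padj = 0.424). Cd86 and Cd40, co-stimulators of antigen-presenting cells, were at 4.45 to 49.6 and 9.23 to 26.1 normalised counts over the 6 libraries, and Cd80 had 1 count in Control 1 and 0 in the others.

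Of 10 genes of interferon-gamma signalling, Socs1 and Socs3 included, 9 were tested, 1 was called higher and 0 lower, with a median log2 FC of 0.38. Irf1, a transcription factor that acts on the Ciita promoter, rose from 432, 323 and 468 normalised counts to 796, 552 and 934, without overlap (log2 FC 0.90, SE 0.24, DESeq2 Padj = 0.00465). The Irf1 call was lost without Control 2 or IDPN 3 (DESeq2 Padj = 0.0892 and 0.112) and in edgeR (adjusted p = 0.0569). Ifng itself had 0 counts in all libraries, which allows up to 3 counts in each. Its receptor chains Ifngr1 and Ifngr2 and the kinase Jak1 had log2 FCs of 0.10, −0.05 and −0.10, none called.

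MHC class I presentation, which displays peptides from inside the cell, was compared because it shares interferon control with class II. All 13 genes were tested and 1 was called, with a median log2 FC of 0.13. Tap1, a subunit of the peptide transporter, rose from 275, 227 and 292 to 461, 477 and 581 (log2 FC 0.93, SE 0.21, DESeq2 Padj = 0.000465), and edgeR called it too (adjusted p = 0.0191). The heavy chain H2-D1 was at 35082, 31336 and 21949 in Control and 27708, 43957 and 32342 in IDPN (log2 FC 0.24, SE 0.21, DESeq2 Padj = 0.661). The chaperones Pdia3 and Calr had log2 FCs of −0.20 and −0.21, neither called. The difference in response between class I and class II genes was not tested.

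**Figure D3:**
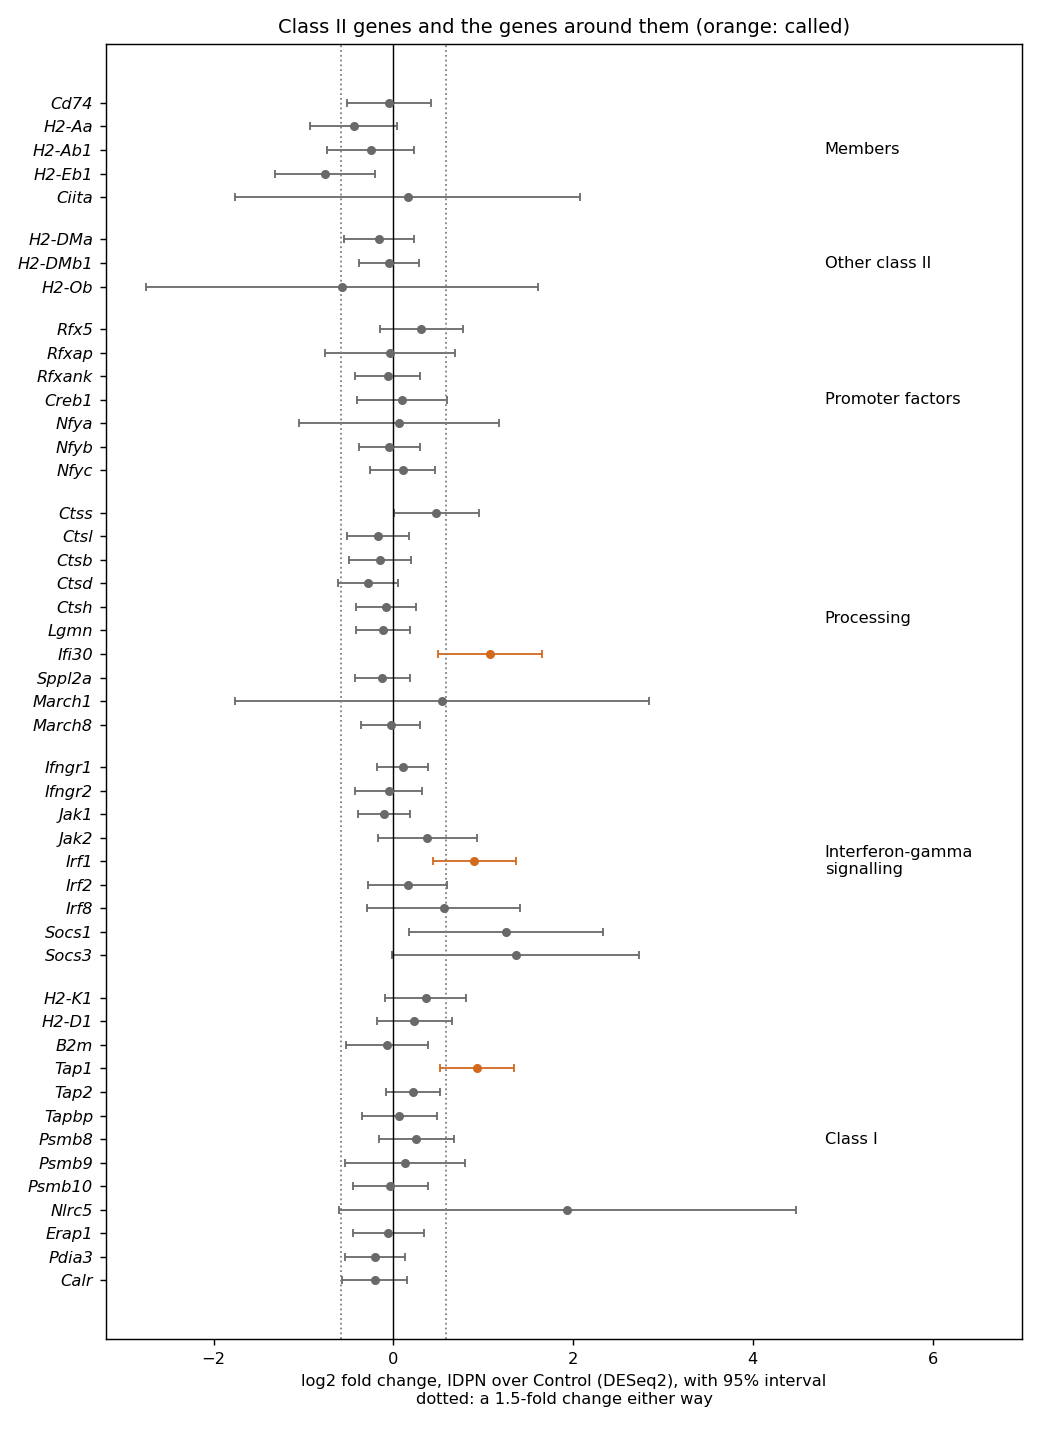
Log2 fold change of IDPN over Control with its 95% interval (x axis) for each tested member and each tested gene of 5 lists around them (y axis), with called genes in orange and a 1.5-fold change either way dotted. The intervals of Cd74, H2-Aa, H2-Ab1 and Ciita include 0, that of H2-Eb1 does not, and the orange points are Ifi30, Irf1 and Tap1.

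Markers of the cells that could carry class II transcripts were read beside the members. Of 20 macrophage markers 19 were tested (the symbol Itgam belonged to 2 rows and was left out), 17 had a log2 FC above 0, and the median was 0.56. One was called, Lyz2, the macrophage and granulocyte lysozyme (log2 FC 0.77, SE 0.20, DESeq2 Padj = 0.00401), and edgeR did not call it (adjusted p = 0.0708). With total-count size factors, Lyz2, C1qc, Laptm5 and Ctss were called higher (DESeq2 Padj = 0.000242, 0.00745, 0.0387 and 0.0431). Over all genes 609 were then called higher, against 410. The groups did not overlap in 9 of the 19 markers, against 3969 of the 17650 genes tested, higher or lower. C1qb, a complement subunit made by tissue macrophages, had a log2 FC of 0.11, and Csf1r, the receptor on which macrophages depend, had 717, 759 and 571 normalised counts in Control and 622, 770 and 638 in IDPN (log2 FC −0.01, SE 0.19). The summed count of the list was 6766 to 8634 in Control and 9639 to 14634 in IDPN, without overlap. With Lyz2 left out, a choice made after seeing the data, the sum was 3501, 4036 and 3031 in Control mice and 4099, 5501 and 3814 after IDPN, and the groups overlapped.

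Relative to the macrophage list, the 4 abundant members stood at 33.0, 28.6 and 33.0 counts per 100 in Control and 12.5, 15.3 and 25.3 in IDPN. All IDPN libraries were lower, a log2 ratio of means of −0.83 that is given without a test or a share over all genes. Lyz2 supplied much of the denominator. With Lyz2 again left out, the ratio was 69.3, 61.1 and 73.6 in Control and 30.4, 40.6 and 63.9 in IDPN. The log2 ratio of means was then −0.60, and IDPN 3 lay above Control 2. Cd74 per 100 Csf1r counts was 143, 143 and 177 against 100, 147 and 197, with overlap.

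Other antigen-presenting cells were sparsely represented. Of 10 dendritic cell markers 3 were tested and 0 called. Flt3, Cd209a, Ccr7 and Clec10a were at 0 to 1.78 normalised counts, and Zbtb46, a dendritic and endothelial factor, was the most abundant at 164 to 250. Xcr1, the chemokine receptor of cross-presenting dendritic cells, was at 7.28, 13.9 and 13.3 in Control and 20.7, 36.1 and 36.4 in IDPN, not overlapping and not called (log2 FC 1.42, SE 0.63, DESeq2 Padj = 0.187). Of 5 B cell markers, Cd79b and Pax5 were at 0 in all libraries and Ms4a1 at 0 to 6.02 normalised counts. Ighm, the immunoglobulin mu heavy chain, nevertheless had 4935, 5563 and 4350 normalised counts in Control and 2553, 2190 and 2102 in IDPN (log2 FC −1.12, SE 0.16, DESeq2 Padj = 2.71e-09). Cd79a was at 124 to 226 in Control and 111 to 164 in IDPN and was not called. The T cell list had 1 tested gene of 7, Lck, a T cell kinase, at 43.7, 28.9 and 18.7 in Control mice and 53.0, 74.3 and 55.1 after IDPN, not overlapping and not called (log2 FC 1.01, SE 0.46, DESeq2 Padj = 0.211). Cd8a had 0 counts in the Control libraries and 7, 5 and 2 in IDPN 1 to 3, and received no Padj. Cd4 had 6, 2 and 6 counts in Control and 14, 0 and 2 in IDPN. Cd3d, Cd3e, Cd3g and Trac had from 0 to 13 counts in any library. In Cd4 and these genes the groups overlapped, and none received a Padj. Of the 17650 genes tested, 3969 did not overlap, higher or lower. The supporting cell list had 1 of 8 called, the connexin Gjb6 (log2 FC −0.94, SE 0.18, DESeq2 Padj = 2.8e-05), and edgeR did not call it (adjusted p = 0.0690). The part of these cell types in the class II values was not tested.

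Genes that neighbour the class II cluster were compared with it by position. Of 10 neighbours 9 were tested, 1 was called and the median log2 FC was 0.34. Ager, the receptor for advanced glycation end products, rose from 70.3, 84.3 and 68.5 to 169, 171 and 213 (log2 FC 1.31, SE 0.28, DESeq2 Padj = 0.000214). Slc39a7, Col11a2 and Brd2, the most abundant neighbours, had log2 FCs of 0.11, 0.02 and 0.34, none called. Btnl2, a butyrophilin-like gene, was at 48.5, 38.1 and 32.9 in Control mice and 15.7, 21.1 and 14.9 after IDPN, lower without overlap and not called (log2 FC −1.21, SE 0.52, DESeq2 Padj = 0.174).

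The genes with the pattern most like the 4 abundant members were sought among 11766 genes, by Pearson's r over the 6 libraries against the members' mean z-score. The highest values were those of Nupr1 (r = 0.987), Rras (0.986), Pias3 (0.976), Lrrc58 (0.969) and Wdr61 (0.957). The members themselves had r of 0.984 for H2-Ab1, 0.979 for H2-Aa, 0.929 for H2-Eb1 and 0.919 for Cd74. Each member is part of that mean z-score, which raises its r. With the group means subtracted, the leading genes were 0610040J01Rik (0.995), Slc25a20 (0.993), Fkbp7 (0.993), Gm2423 (0.992) and Nosip (0.991), none of which was among the first 5. Both sets describe 6 libraries that share size factors, with IDPN 1 far from the others, and carry no test.

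**Figure D4:**
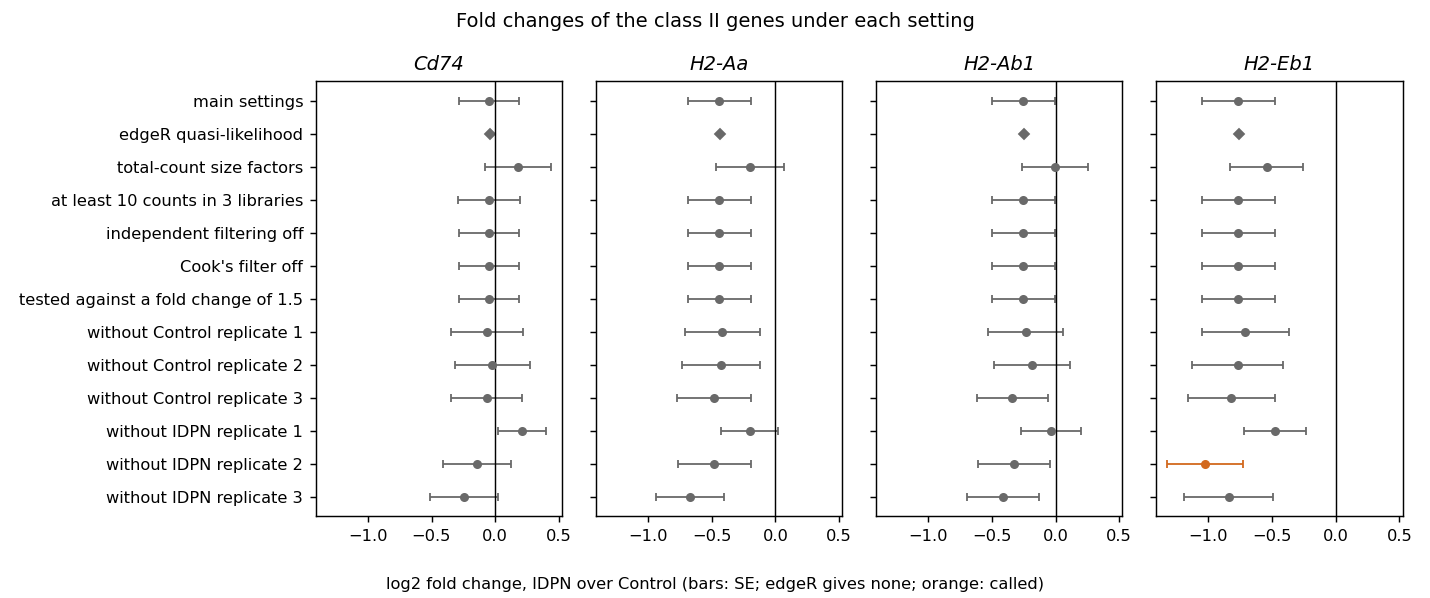
Log2 fold change of IDPN over Control (x axis, bars show the SE, which edgeR does not give) for the 4 abundant members under each analysis setting (y axis), with a call in orange. H2-Aa, H2-Ab1 and H2-Eb1 stay below 0 under every setting drawn, Cd74 moves to 0.18 with total-count factors and 0.21 without IDPN 1, and H2-Eb1 without IDPN 2 is the only call.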

How the data were processed

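Libraries were prepared with a SMART-seq2 protocol from 6 to 11 ng of total RNA, primed with oligo-dT. The authors mapped reads with STAR 2.5.3a to GRCm38 and quantified genes with RSEM 2.3.0 on GENCODE M15, and the deposited estimated counts (expected counts) are whole numbers without normalisation or filtering. RSEM shares out reads that fit several genes. Counts were tested with the DESeq2 1.42.0 Wald test (R 4.3.3, no covariate) fitted on all genes. Benjamini-Hochberg adjustment covered the 17650 genes that the DESeq2 filters left with a Padj. The alternatives were edgeR 4.0.16, total-count factors, a minimum of 10 counts in 3 libraries, the DESeq2 filters off, a test against a 1.5-fold change, and leaving out each library. The code was tested on simulated data. Coordinates and exonic lengths came from GENCODE M21, and the length was found for 52489 genes. The members and lists were chosen with earlier results of these data known, so no set test is given. Named genes were all members and other class II chains and, from each list, called genes and the 3 most abundant. Rfx5, Ctss, C1qc, Laptm5, Cd86, Cd40, Cd80, Ifng, Xcr1, Lck, Cd4, Cd8a and Btnl2, and markers at or near 0, were added after their values were seen. Not every gene that met the rule is named. Replicates were separate animals and were numbered in accession order, so no pairing was made. The labels give all libraries 1 batch. A few genes were removed from the lists and are not reported here, and counts are over the genes kept.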

Additional observations from a re-analysis of the deposited data

How the results depend on the processing

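Of 60 fits of the members under the alternatives, 55 gave the main direction and no call, 4 reversed the sign and 1 gave a call. Those with the DESeq2 filters off or against a 1.5-fold change left every fold change as it was. They could not reverse a sign, and the test against a 1.5-fold change could add no call. Cd74 reversed with total-count factors (log2 FC 0.18) and ranged from −0.24 to 0.21 when 1 library was left out, and Ciita ranged from −0.64 to 0.63. H2-Aa ranged from −0.67 to −0.20 and H2-Ab1 from −0.41 to −0.04. H2-Eb1 ranged from −1.02 to −0.47 over these leave-outs and passed the threshold without IDPN 2, so the number of members called ranged from 0 to 1. Total-count factors moved the median of all genes by 0.251 on the log2 scale. Genes called higher over all genes numbered 410 in DESeq2, 166 in edgeR, 34 when tested against a 1.5-fold change, 609 with total-count factors, and from 234 to 611 over the leave-outs. Genes called lower numbered 604, with 357 in edgeR, 214 with total-count factors and 111 against a 1.5-fold change. No paired analysis was possible because the replicate numbers are given by accession order and the labels tie no Control animal to an IDPN animal. Ciita had too few counts for its direction to be read.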
